A study of Mus musculus with 2 samples.

Results

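The 33 genes described here handle lipid inside lung cells, and they were taken by symbol from the 28692 genes counted in both matrices, where all 33 were found. They comprise 7 genes of lipid storage, uptake and lipolysis, 3 fatty acid binding proteins, 3 genes of cholesterol efflux and its regulation, 5 of fatty acid activation and oxidation, 7 of fatty acid synthesis and 8 of sterol synthesis. The cells came from lungs of mice aged 8 to 10 weeks with the genotype Lepr-Cre;Rosa26-tdTomato, in which cells with present or past activity of the leptin receptor gene Lepr carry a red reporter, and which had been given saline or bleomycin, an agent that injures the lung and leads to fibrosis. Both groups carried the same alleles, live reporter-positive cells were sorted from each, and transcripts were counted in droplets by unique molecular identifiers (UMIs). Each group has 1 library. The labels give neither the dose, nor the day after treatment, nor how many animals went into a library.

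Cells store surplus fatty acids as triglyceride in lipid droplets coated by perilipins, and lipases release them again for oxidation or for new membranes. Cholesterol is either taken up or built from acetyl units, and the building genes are switched on together by SREBP2, the product of Srebf2, when membranes hold little sterol, while INSIG1 holds SREBP2 back. When sterol is plentiful the LXR receptors turn on the exporters ABCA1 and ABCG1. In the lung, type 2 cells make the lipids of surfactant, alveolar macrophages take surfactant up and break it down, and lipid-bearing fibroblasts lie beside the alveoli.

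After filtering, 5196 saline and 4308 bleomycin cells were kept, with medians of 6301 and 12271 UMIs per cell, and 31 barcodes occurred in both libraries. Cells were clustered without the 33 genes, and clusters were named from marker lists as fibroblast-like, macrophage-like and so on, written without "like" from here on. Fibroblasts were 3573 saline and 3516 bleomycin cells, alveolar macrophages 637 and 332, endothelial cells 148 and 184, and type 2 cells 309 and 1, so type 2 cells are described after saline only. The fibroblast markers were found in at least 25% of the cells for 8 of 10 genes after saline and 9 of 10 after bleomycin, the macrophage markers for 10 and 11 of 11, and the type 2 markers for 10 of 10. Among kinds of fibroblast the alveolar markers were found so for 11 of 11 in both libraries, but the adventitial ones for 5 of 10 after saline and 7 of 10 after bleomycin, and in cluster 0, the saline adventitial cluster, their mean share of cells was 43.6% against 41.8% for the alveolar markers. A level is the UMIs of a gene per 1000000 UMIs of a class in a library (UPM), brackets hold exact 95% intervals that cover counting error only, and no test was possible, because a single library stands for each group and gives no spread between animals. "Rose" and "fell" are kept for a difference of at least 2-fold with at least 50 UMIs and 20 UPM in the higher library (the size rule), and a gene that reaches these minimums in either library has enough UMIs. A log2 ratio is of bleomycin over saline with 1 UPM added to both, while its interval comes from the counts alone.

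Sterol synthesis genes went in opposite directions in fibroblasts and alveolar macrophages. In fibroblasts 25 of the 33 genes had enough UMIs, of which 4 rose and 6 fell, where 6.15% of all 5886 genes with enough UMIs rose and 9.72% fell. Of the 8 sterol genes 7 had enough UMIs in fibroblasts, 4 of them fell, none rose, and the median log2 ratio of the 7 was -1.17, beside -0.01 over all genes. In alveolar macrophages 30 of the 33 had enough UMIs, of which 9 rose and 5 fell, where 2.98% of 5136 genes rose and 5.37% fell. All 8 sterol genes had enough UMIs there, 6 rose, none fell, and their median log2 ratio was 1.79, beside -0.12 over all genes. Summed over the 8 genes, the level went from 348 [341 to 355] to 143 [140.03 to 147] UPM in fibroblasts and from 241 [224 to 260] to 758 [723 to 794] UPM in macrophages. All 8 ratios were above 0 in macrophages and below 0 in fibroblasts, and Hmgcs1 and Idi1 passed the size rule both ways. The share of all genes with opposite signs, or past the rule in opposite directions, in these classes was not counted.

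The upstream sequence of 2 sterol genes is shown as an example. These genes passed the size rule in 3 (Hmgcs1) and 4 (Insig1) of the 5 classes compared. Of the letters marked below, Hmgcs1 holds both kinds and Insig1 only CCAAT, which is common among promoters. The classes share cells, because fibroblasts include the alveolar and adventitial kinds. Idi1, which is not shown, passed the rule in as many classes as Hmgcs1 and also held CCAAT. The bases lie upstream of the start of the gene in both RefSeq and GENCODE M21, on the plus strand of GRCm38.p6, and come from RefSeq. Capitals mark TCACNCCAC, the sterol regulatory element that SREBP proteins bind, and CCAAT or its reverse complement ATTGG, the box bound by NF-Y.
Hmgcs1, chr13:119690101-119690350: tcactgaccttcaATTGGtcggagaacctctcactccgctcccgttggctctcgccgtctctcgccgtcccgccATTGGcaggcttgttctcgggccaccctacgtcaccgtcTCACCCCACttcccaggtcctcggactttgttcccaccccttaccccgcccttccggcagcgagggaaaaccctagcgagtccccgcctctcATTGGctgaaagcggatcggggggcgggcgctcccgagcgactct
Insig1, chr5:28071162-28071362: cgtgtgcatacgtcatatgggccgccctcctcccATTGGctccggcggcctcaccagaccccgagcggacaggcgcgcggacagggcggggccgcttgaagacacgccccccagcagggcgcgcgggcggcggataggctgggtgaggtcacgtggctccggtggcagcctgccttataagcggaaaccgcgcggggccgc
In Hmgcs1 the sterol element begins 137 bases before the RefSeq start, between NF-Y boxes that begin 237, 176 and 45 bases before it. The stretch of Insig1 holds 1 NF-Y box, 216 bases before the start, and no match to the sterol element as spelled here. Over 32851 RefSeq windows of 300 bases, searched on both strands, TCACNCCAC was in 1.24% and CCAAT in 37.4%. Windows were at hand for 23 of the 33 genes, and 2 of them, Hmgcs1 and Acsl1, held TCACNCCAC, while 13 held CCAAT, among them all 5 sterol genes that had a window. A match describes letters and not a bound site.

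Hmgcs1, the synthase that opens the mevalonate route, was at 57.2 [54.3 to 60.2] UPM in saline fibroblasts and 24.9 [23.5 to 26.2] UPM in bleomycin fibroblasts (log2 ratio -1.17 [-1.31 to -1.09]). In alveolar macrophages it was at 46.5 [39.0 to 55.02] UPM after saline and 146 [131 to 163] UPM after bleomycin (log2 ratio 1.63 [1.36 to 1.95]). The intervals of both classes met after saline and lay far apart after bleomycin. Idi1, the isomerase of the isoprenoid building block, was at 31.3 [29.2 to 33.5] UPM in saline and 8.04 [7.29 to 8.84] UPM in bleomycin fibroblasts (log2 ratio -1.84 [-2.13 to -1.79]), a fall. Macrophages held 21.7 [16.7 to 27.8] UPM of Idi1 after saline and 87.7 [76.1 to 101] UPM after bleomycin, a rise (log2 ratio 1.97 [1.60 to 2.45]). Srebf2, which encodes the master regulator itself, fell in fibroblasts from 39.9 to 16.03 UPM (log2 ratio -1.26 [-1.45 to -1.18]), and in macrophages its levels of 26.9 and 45.8 UPM differed by less than 2-fold (log2 ratio 0.75 [0.34 to 1.21]). Insig1, the brake on the pathway and one of its own targets, fell in fibroblasts from 89.9 to 25.9 UPM (log2 ratio -1.76 [-1.89 to -1.70]) and stood at 59.6 and 118 UPM in macrophages, just under the 2-fold bound (log2 ratio 0.97 [0.70 to 1.27]). Regulator and brake thus shared the direction of the enzymes in each class, with the size rule met in fibroblasts only.

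All 4 later enzymes rose in macrophages, and Fdps and Sqle had the highest ratios of the 8 genes. Fdps, which makes farnesyl diphosphate, stood at 24.1 [18.8 to 30.5] UPM after saline and 128 [114 to 143] UPM after bleomycin (log2 ratio 2.36 [2.03 to 2.81]). Fdft1, the squalene synthase, rose from 21.005 to 83.9 UPM (log2 ratio 1.95 [1.58 to 2.44]). Sqle, which oxidises squalene and is a rate-limiting step, rose from 11.0 to 53.1 UPM (log2 ratio 2.17 [1.70 to 2.88]) on 32 and 124 UMIs, a call lost when cells were thinned to 2000 UMIs, which left too few. Cyp51, the lanosterol demethylase, rose from 30.3 to 95.4 UPM (log2 ratio 1.62 [1.29 to 2.03]). In fibroblasts none of these 4 passed the rule: the log2 ratios were -0.91 for Fdps, -0.78 for Fdft1 and -0.83 for Cyp51, and Sqle, at 17.1 and 7.63 UPM, had too few UPM. An exon of Fdps overlaps one of the predicted gene Gm43738 on the same strand, so reads there could be split between them.

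The share of cells with a UMI, after each cell was thinned to 2000 UMIs to remove the difference in depth, moved the same way. Macrophages with an Hmgcs1 UMI were 8.48% after saline and 21.1% after bleomycin (17.6% and 51.8% unthinned), and those with an Fdps UMI 3.77% and 20.8% (8.79% and 45.5% unthinned). Fibroblasts with an Insig1 UMI were 14.97% and 5.03% (39.7% and 26.1% unthinned). No class lacks these housekeeping transcripts, so no share from a class without them can be set beside these.

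**Figure D1:**
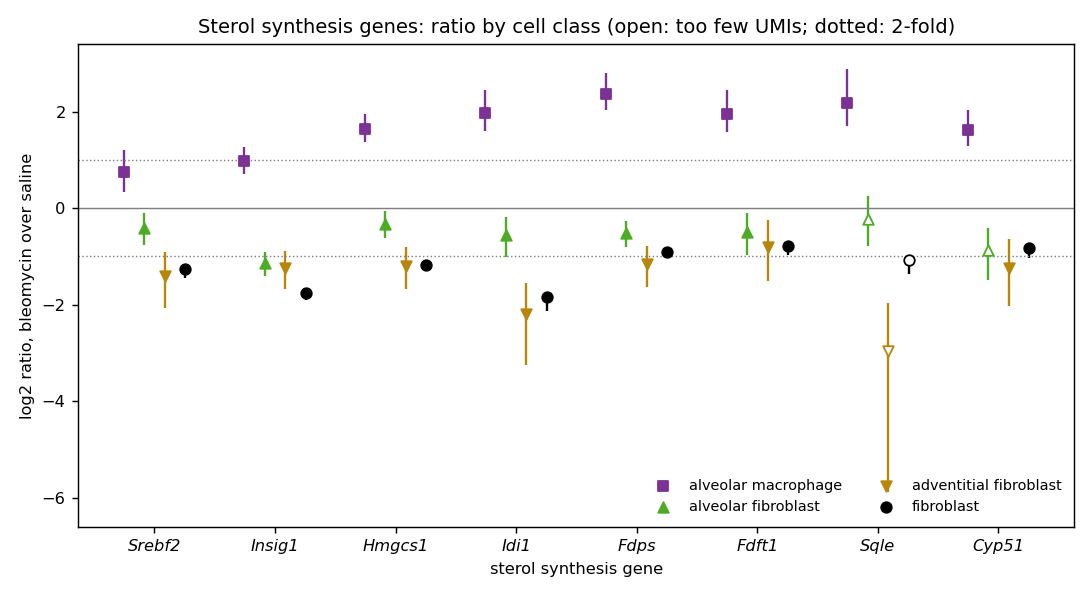
Log2 ratio of bleomycin over saline (vertical axis) of the 8 sterol synthesis genes (horizontal axis) in 4 cell classes, with exact 95% counting intervals as bars and open symbols for too few UMIs. The macrophage squares lie above 0 for all 8 genes, and the 3 fibroblast classes lie below 0, with the alveolar fibroblasts nearest to it for all but Cyp51.

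The number of sterol genes that fell differed between the kinds of fibroblast. The libraries parted into different clusters: after saline alveolar fibroblasts were clusters 2 and 5 and after bleomycin clusters 16 and 17, adventitial fibroblasts were cluster 0 after saline and cluster 22 after bleomycin, and the fibrotic kind, clusters 15, 20 and 23, held 32 saline and 1642 bleomycin cells. Cluster 20, with 966 of these bleomycin cells, is fibrotic by the centred rule only. Its mean marker share was 48.4% for the fibrotic and 55.6% for the alveolar list. In adventitial fibroblasts (720 and 192 cells) 24 of the 33 genes had enough UMIs, 2 rose and 8 fell, where 3.05% of genes rose and 8.02% fell, and 6 of 7 sterol genes fell, by a median log2 ratio of -1.24. Idi1 fell from 38.9 to 7.68 UPM there (log2 ratio -2.20 [-3.24 to -1.55]), and Fdps from 70.1 to 30.7 UPM (log2 ratio -1.16 [-1.63 to -0.77]). In alveolar fibroblasts (1413 and 385 cells) 21 of the 33 had enough UMIs, 1 rose and 2 fell, where 3.72% rose and 3.94% fell, and among 6 sterol genes Insig1 alone fell, from 90.5 to 40.5 UPM (log2 ratio -1.14 [-1.41 to -0.92]). The other 5 there had log2 ratios from -0.57 to -0.33. At resolution 2 no sterol gene fell in alveolar fibroblasts. With each library clustered alone, 5 sterol genes fell in alveolar fibroblasts and 1 in adventitial fibroblasts, so how the fall divides between these kinds depends on how the clusters are drawn, while 4 fell among all fibroblasts under that setting too.

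Cluster by cluster the summed sterol level did not overlap between libraries. The 5 fibroblast clusters with at least 30 saline cells ranged from 270 to 389 UPM, and the 8 with at least 30 bleomycin cells from 96.5 to 208 UPM. The lowest was cluster 25 (632 bleomycin cells, led by Cfd, Serpina3m and Pappa), and the highest of that library was cluster 16 (329 cells), the alveolar kind. By gene the clusters of the libraries stayed apart for Srebf2 (lowest saline cluster 33.6, highest bleomycin cluster 29.5 UPM), Insig1 (78.0 and 44.7 UPM) and Hmgcs1 (43.2 and 40.9 UPM), and they met or overlapped for the other 5. The share of all genes whose cluster ranges stay apart was not counted. It could be large, because the libraries parted into different clusters. Among fibroblasts as a class the 9 markers of the fibrotic kind went from 179 to 1874 UPM summed, the 11 of the alveolar kind from 9382 to 2837 UPM and the 9 cycling genes from 39.2 to 260 UPM, and their part in the sterol difference was not tested.

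Outside the fibroblasts the sterol sum was higher after bleomycin in alveolar macrophages. It was lower in the other groups of named lineage given here for both libraries. The macrophage values rest on cluster 4 after saline (600 cells, sterol sum 232 UPM) and cluster 21 after bleomycin (303 cells, 788 UPM). Cluster 12, an immune cluster of no named kind led by immunoglobulin and complement C1q genes and shared by both libraries, had 385 [341 to 433] UPM after saline and 162 [135 to 193] UPM after bleomycin. General capillary endothelium, cluster 14, had 247 [215 to 282] and 117 [95.05 to 143] UPM. Endothelial cells as a class had 243 [215 to 273] and 212 [192 to 234] UPM, with intervals that overlap, and lymphatic cells 302 UPM after bleomycin. Pericytes, 49 cells in each library, had 268 [209 to 337] and 152 [117 to 194] UPM. Of the clusters named so far in this paragraph with a value in both libraries none had a higher sum after bleomycin. Of those given no lineage, cluster 13 had a higher one, at 132 [104 to 165] and 184 [156 to 216] UPM. Cluster 11 had 204 [166 to 249] and 140 [103 to 186] UPM. In the macrophage class the 11 markers of monocytes or interstitial macrophages went from 231 to 638 UPM summed, with 5 of 6 that had enough UMIs higher, and the 11 alveolar macrophage markers from 27722 to 22492 UPM. The part of such cells in the sterol rise was not tested, and new arrivals and a change within resident cells cannot be told apart here.

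**Figure D2:**
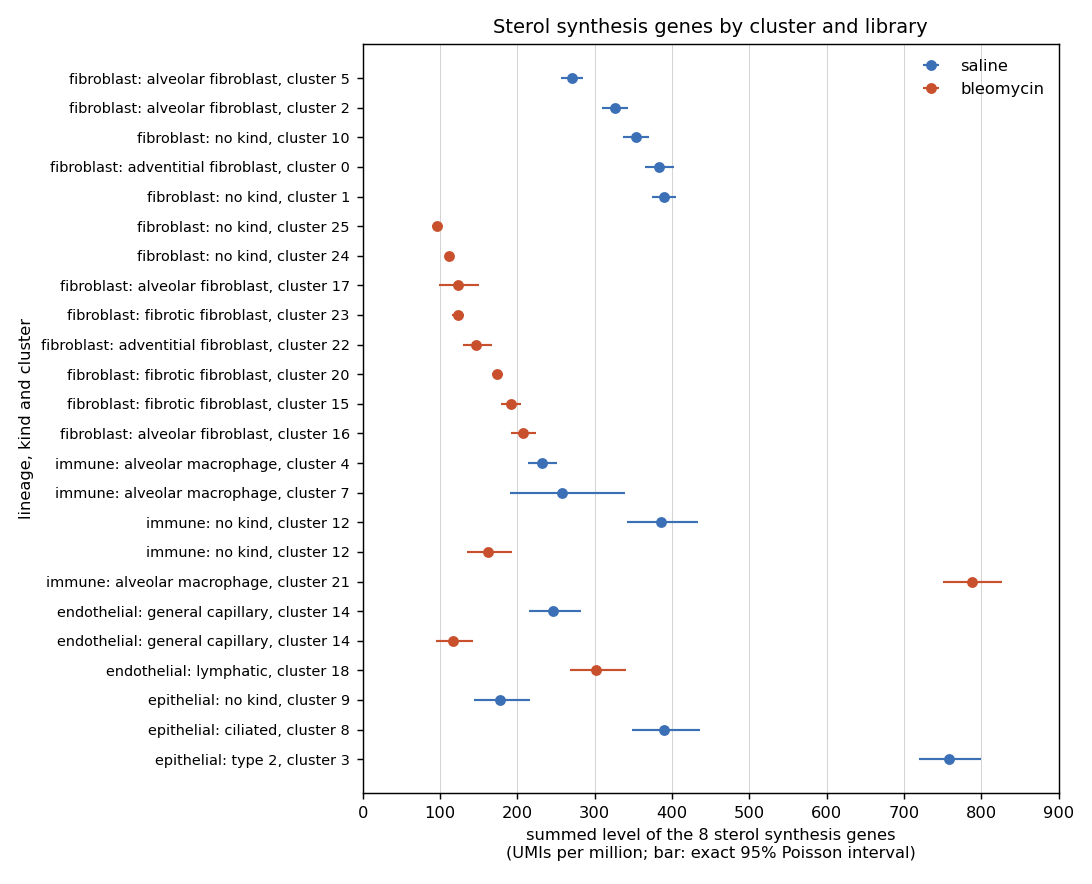
Summed level of the 8 sterol synthesis genes (horizontal axis, UPM) in each fibroblast, immune, endothelial and epithelial cluster with at least 30 cells in a library (vertical axis), with exact 95% Poisson intervals as bars. The 8 bleomycin fibroblast clusters (96.5 to 208) lie below the 5 saline ones (270 to 389), and macrophage cluster 21 after bleomycin (788) lies near the type 2 cells after saline (758).

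The 19 other sterol synthesis genes, which were listed apart from the 8, rose in macrophages and fell in fibroblasts where they passed the rule. In macrophages 14 had enough UMIs, 8 rose, none fell, and their median log2 ratio was 1.16. Among those that rose were Pmvk, the phosphomevalonate kinase, from 35.5 to 118 UPM (log2 ratio 1.71), Hsd17b7, from 6.89 to 24.8 UPM (1.71), and Msmo1, a methylsterol oxidase, from 40.6 to 128 UPM (1.63). In fibroblasts 8 had enough UMIs, none rose and 2 fell, Msmo1 (log2 ratio -1.55) and Sc5d (-1.34), and the median was -0.54. In adventitial fibroblasts 7 had enough UMIs, 3 fell, Msmo1 (log2 ratio -1.73), Pmvk (-1.21) and Sc5d (-0.96), none rose, and the median was -0.77. Over all genes with enough UMIs, 2.98% rose in macrophages, 9.72% fell in fibroblasts and 8.02% fell in adventitial fibroblasts.

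Free RNA from type 2 cells was higher in the saline library. Sftpc, the surfactant protein C gene and a type 2 marker, was at 209512 UPM in type 2 cells, 806 UPM in saline fibroblasts and 1045 UPM in saline macrophages, but 13.4 and 7.70 UPM in these classes after bleomycin. If all of that Sftpc came with type 2 RNA of the usual make-up, it would account for 0.536% to 1.37% of the saline level of the 8 sterol genes in fibroblasts and for 0.707% to 4.52% in macrophages. The same bound was 35.7% for Scd1 and 29.2% for Fabp5 in saline fibroblasts, and 36.0% for Scd1 and 24.2% for Fasn in saline macrophages. Taking these bounds off left 4 sterol genes lower in fibroblasts.

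The efflux genes of macrophages went the other way from sterol synthesis. Abcg1, which exports cholesterol to lipoprotein particles, had 923 [888 to 958] UPM in saline and 439 [413 to 467] UPM in bleomycin macrophages, a fall (log2 ratio -1.07 [-1.18 to -0.97]) that was lost at -0.98 when the 50 genes with most UMIs were left out of the totals. Abca1, which loads lipid-poor apolipoprotein, fell as well, with 56.1 [47.8 to 65.4] UPM after saline and 24.8 [18.8 to 32.1] UPM after bleomycin (log2 ratio -1.15 [-1.64 to -0.74]). Nr1h3, which encodes LXR alpha, did not pass the rule at 49.9 and 32.1 UPM (log2 ratio -0.62 [-1.06 to -0.23]). Of the 3 genes, all ratios in macrophages lay below 0. In fibroblasts neither Abca1 (36.6 and 29.6 UPM) nor Nr1h3 (85.8 and 43.3 UPM, log2 ratio -0.97) passed the rule, and Abcg1, at 2.71 and 5.10 UPM, had too few UPM. An exon of Nr1h3 overlaps one of the predicted gene Gm13783 on the same strand. Nr1h3 was higher in pericytes than in any class compared, at 407 UPM after saline and 299.8 UPM after bleomycin in cluster 6.

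Among 14 other genes of sterol transport, storage and LXR response, 13 had enough UMIs in macrophages, 2 rose and 1 fell. Apoe, the apolipoprotein that carries exported lipid, rose from 276 to 802 UPM (log2 ratio 1.54 [1.42 to 1.66]), and Stard4, an intracellular sterol carrier, from 14.1 to 35.1 UPM (1.26). Mylip, a ubiquitin ligase and LXR target, fell from 47.2 to 19.3 UPM (log2 ratio -1.25 [-1.81 to -0.80]). The known LXR targets named here therefore did not share a direction, since Apoe rose while Abca1, Abcg1 and Mylip fell. Apoe was at 3427 UPM in saline and 1288 UPM in bleomycin fibroblasts, where it fell (log2 ratio -1.41). In fibroblasts 9 of the 14 had enough UMIs, none rose and 3 fell, with Cyp27a1, a sterol hydroxylase, from 54.5 to 8.38 UPM (log2 ratio -2.57) and Apoc1 (-1.41) beside Apoe. Over all genes with enough UMIs, 2.98% rose and 5.37% fell in macrophages, and 9.72% fell in fibroblasts.

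The 3 fatty acid binding proteins did not move together in macrophages. These small proteins carry fatty acids through the cytosol. Fabp5, the epidermal type, rose in macrophages, from 648 UPM [619 to 678] after saline to 1808 UPM [1754 to 1863] after bleomycin (log2 ratio 1.48 [1.40 to 1.56]). Fabp1, the liver type, fell there, from 552 UPM [526 to 580] after saline to 65.5 UPM [55.5 to 76.7] after bleomycin (log2 ratio -3.06 [-3.33 to -2.84]). Fabp4, the adipocyte type, stood at 271 [252 to 290] and 339 [316 to 363] UPM, within the 2-fold bound (log2 ratio 0.32 [0.18 to 0.47]). So 1 member rose, 1 fell and 1 passed neither way in the same cells. After thinning, 48.4% of saline and 9.04% of bleomycin macrophages had a Fabp1 UMI (62.3% and 23.5% unthinned), against 0.224% and 0.0569% of fibroblasts, the background for this gene. Fabp5 lies at chr3:10012548-10016607 and Fabp4 at chr3:10204088-10208576 of GRCm38, on opposite strands, while Fabp1 lies on chromosome 6 at 71199827-71205023.

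In fibroblasts Fabp4 rose, with 1.66 [1.203 to 2.24] UPM after saline and 44.8 [43.0 to 46.7] UPM after bleomycin, on 43 and 2336 UMIs, a 26.9-fold difference (log2 ratio 4.10). The 5 saline fibroblast clusters held 0.85 to 2.54 UPM and the 8 bleomycin clusters 6.83 to 106 UPM. The highest was cluster 25, at 106 UPM, and the lowest cluster 20, of 966 cells, named fibrotic but with a higher mean share of alveolar markers. How many of all genes have cluster ranges that stay apart was not counted. After bleomycin immune cells, most of them alveolar macrophages, held 263 UPM and endothelial cells 496 UPM, so the fibroblast level was below that of every other lineage with at least 100 cells. The part of free RNA was not tested. Pericytes of the same library, 49 cells, were at 7.14 [1.47 to 20.9] UPM of Fabp4. After thinning 0.280% of saline and 7.14% of bleomycin fibroblasts had a Fabp4 UMI (1.203% and 23.4% unthinned), and in pericytes, with a median of 7382 UMIs against 13599, 0% of 49 did (interval up to 7.25%, and 4.08% unthinned). Fabp5 rose in fibroblasts too, with 12.5 [11.2 to 13.9] UPM after saline and 32.3 [30.8 to 33.9] UPM after bleomycin (log2 ratio 1.304), again below the 72.1 UPM of endothelial cells in that library. Fabp1 had 30 and 7 UMIs in fibroblasts.

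**Figure D3:**
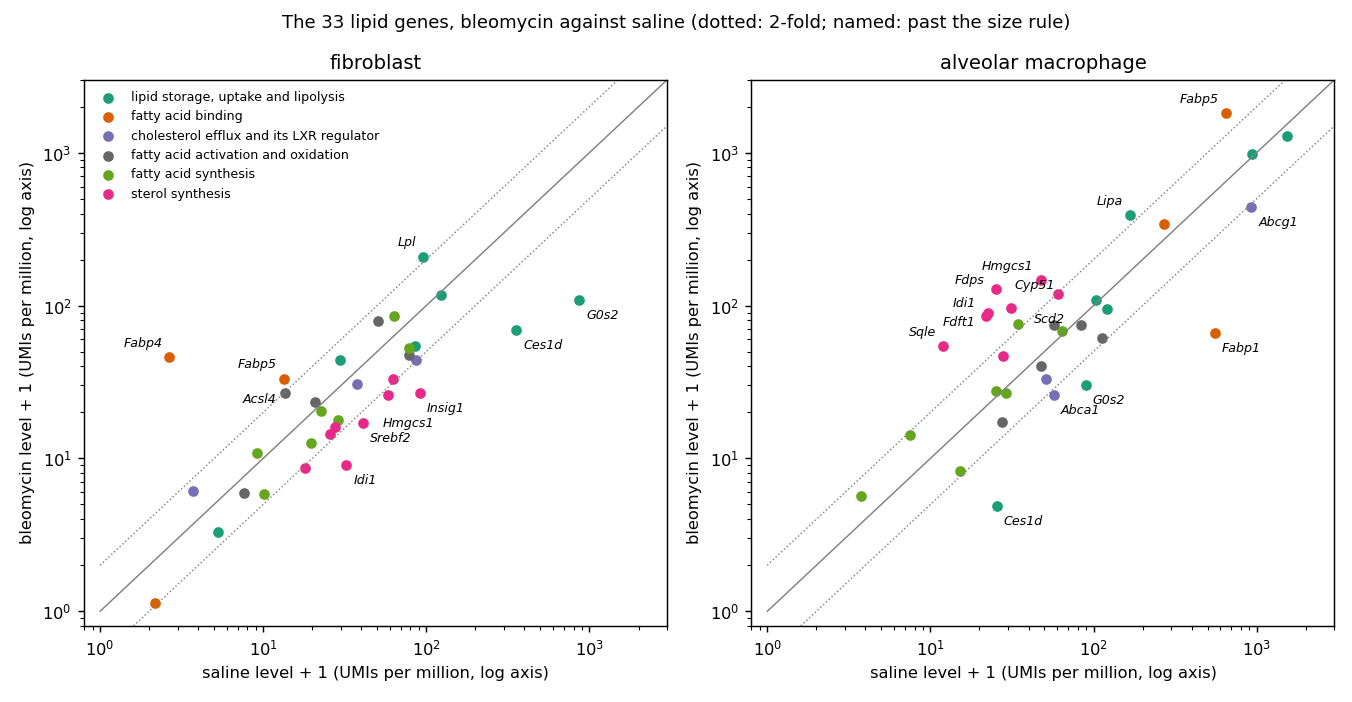
Level of each of the 33 genes after bleomycin (vertical log axis) against its level after saline (horizontal log axis) in fibroblasts and alveolar macrophages, both as UPM plus 1, coloured by role, with named genes past the size rule and dotted lines at 2-fold. Sterol genes lie below the diagonal in fibroblasts and above it in macrophages, where Fabp1 (552 to 65.5) and Fabp5 (648 to 1808) lie on opposite sides.

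Of the 7 genes of storage, uptake and lipolysis 6 had enough UMIs in fibroblasts, of which 1 rose, Lpl, and 2 fell, G0s2 and Ces1d, where 6.15% of all genes rose and 9.72% fell. G0s2, which inhibits the triglyceride lipase ATGL, was at 865 [853 to 876] UPM in saline and 108 [105 to 110] UPM in bleomycin fibroblasts, a fall (log2 ratio -2.99 [-3.05 to -2.96]). It fell in alveolar fibroblasts too, from 1284 to 602 UPM (log2 ratio -1.09 [-1.16 to -1.03]), and in adventitial fibroblasts from 318 to 112 UPM (log2 ratio -1.49 [-1.72 to -1.29]). G0s2 thus fell less in either named kind than in the whole class. Clusters 1 and 10 (817 and 591 saline cells) and clusters 24 and 25 (648 and 632 bleomycin cells) are fibroblasts of no named kind. The alveolar kind held 1413 and 385 cells, but 2435 and 749 with each library clustered alone. The part of cell numbers in the fall of G0s2 was not tested. In alveolar fibroblasts the fall of G0s2 was lost under 5 of 13 alternative settings, and over all 13 the log2 ratio ran from -1.68 to -0.67. Ces1d, a carboxylesterase that hydrolyses triglyceride, also fell in fibroblasts as a class, with 355 [347 to 362] UPM after saline and 68.6 [66.4 to 70.9] UPM after bleomycin (log2 ratio -2.35 [-2.43 to -2.31]). In alveolar fibroblasts Ces1d stood at 634 and 482 UPM and did not pass the rule (log2 ratio -0.40 [-0.47 to -0.32]), and in adventitial fibroblasts it fell from 28.2 to 7.68 UPM. Among fibroblast clusters those of highest Ces1d were the alveolar ones in both libraries, 681 UPM in cluster 5 after saline and 558 UPM in cluster 16 after bleomycin, and the lowest was the fibrotic cluster 23, at 2.87 UPM. Ciliated cells after saline held more, 994 UPM. Ces1d belongs to a family of near-identical neighbouring genes, so the counting could have split its reads among them and its level is uncertain.

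Lpl, the lipase that frees fatty acids from lipoproteins at the cell surface, rose in fibroblasts, from 94.96 UPM [91.2 to 98.8] to 208 UPM [204 to 212] (log2 ratio 1.12 [1.07 to 1.196]; 1.79 without clusters 1 and 10), and in alveolar fibroblasts from 43.4 to 190 UPM (log2 ratio 2.103 [1.95 to 2.303]). In adventitial fibroblasts it was at 72.6 and 67.5 UPM. With each library clustered alone the alveolar value was 0.92 and no longer a call. For Lpl the fibroblast clusters overlapped, from 20.1 to 173 UPM after saline and from 42.4 to 466 UPM after bleomycin. Cluster 20 was the highest, the largest cluster named fibrotic, in which alveolar markers had the higher mean share (55.6% against 48.4%). In bleomycin fibroblasts Lpl was 0.465 of the lowest level in another lineage of that library with at least 100 cells. For alveolar fibroblasts this was 0.424, and the part of free RNA in the rise of Lpl was not tested. Plin2, the droplet coat protein, was at 122 [117 to 126] and 117 [114 to 120] UPM in fibroblasts, so the class average was nearly level. By kind Plin2 stood at 177 and 241 UPM in alveolar fibroblasts (log2 ratio 0.45 [0.33 to 0.57]) and at 47.9 and 34.001 UPM in adventitial ones, and neither passed the rule. Pnpla2, which encodes ATGL, was at 28.7 and 43.0 UPM in fibroblasts (log2 ratio 0.57), and Lipa, the lysosomal acid lipase, at 84.1 and 53.3 UPM (log2 ratio -0.65). Pparg, the regulator of fat cell genes, had 111 and 119 UMIs in fibroblasts, too few UPM at 4.29 and 2.28 UPM.

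Macrophages kept high levels of most storage genes in both libraries. Lpl was at 1532 [1487 to 1577] and 1282 [1237 to 1329] UPM, Plin2 at 930 [896 to 966] and 974 [935 to 1015] UPM, Pnpla2 at 102 and 108 UPM and Pparg at 119 and 94.6 UPM, and none of these 4 passed the rule. Lipa rose, from 167 UPM [153 to 183] after saline to 389 UPM [365 to 416] after bleomycin (log2 ratio 1.21 [1.06 to 1.38]), with 26.5% of saline and 49.1% of bleomycin cells holding a UMI after thinning (49.0% and 82.2% unthinned). Ces1d (24.4 to 3.85 UPM, lost when cells were thinned) and G0s2 (88.5 to 29.1 UPM) fell in macrophages. Both are far higher in fibroblasts, the 10 fibroblast markers summed to 1849 UPM in saline and 1231 UPM in bleomycin macrophages, and the part of free fibroblast RNA in these 2 falls was not tested. Saline Ces1d in macrophages was below its level in every other lineage with at least 100 cells.

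Other genes of droplets, lipolysis and uptake were listed apart from the members. Of 19 other droplet and lipolysis genes, 8 had enough UMIs in macrophages and 1 fell, Cidec, which fuses droplets, from 242 to 44.5 UPM (log2 ratio -2.42 [-2.76 to -2.15]). In fibroblasts 5 of the 19 had enough UMIs and 1 rose, the monoglyceride lipase gene Mgll (log2 ratio 0.997). In adventitial fibroblasts Mgll fell, from 57.95 to 26.9 UPM (log2 ratio -1.08 [-1.58 to -0.66]). Of 14 other uptake and binding genes, 7 had enough UMIs in macrophages, 3 rose and 1 fell: the scavenger receptor gene Msr1 rose (log2 ratio 1.44), as did the acyl-CoA binding protein gene Dbi (1.21) and the lipoprotein receptor gene Scarb1 (1.04). Cd36, which takes up fatty acids and oxidised lipoprotein, fell from 216 to 62.1 UPM (log2 ratio -1.78 [-2.07 to -1.54]). In fibroblasts 5 of these 14 had enough UMIs, none rose and 3 fell, among them Slc27a3 (log2 ratio -1.70) and Vldlr (-0.99). Over all genes with enough UMIs, 2.98% rose and 5.37% fell in macrophages, and 6.15% rose and 9.72% fell in fibroblasts.

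Fatty acid activation and oxidation genes stayed within the 2-fold bound with 1 exception. Acsl4, which activates long polyunsaturated fatty acids, rose in fibroblasts, with 12.7 [11.3 to 14.1] UPM after saline and 25.7 [24.4 to 27.2] UPM after bleomycin (log2 ratio 0.967), a call just past the bound that was lost when each cell had equal weight. It rose in adventitial fibroblasts, a part of the same cells, from 14.0 to 30.2 UPM (log2 ratio 1.06), and that call was lost with equal weight per cell (0.93) and with cells thinned. Cpt1a, which feeds fatty acids into mitochondria, was at 19.9 and 22.4 UPM in fibroblasts and 82.6 and 73.6 UPM in macrophages. Acadl, a long-chain dehydrogenase, was at 49.3 and 78.4 UPM in fibroblasts (log2 ratio 0.66), while Acadm, its medium-chain counterpart, was at 77.5 and 46.5 UPM (log2 ratio -0.73), so these 2 steps of one pathway lay on opposite sides of 0. Acadm in macrophages was at 111 and 60.8 UPM (log2 ratio -0.86 [-1.17 to -0.58]). Acsl1 had too few UPM in fibroblasts and stood at 26.5 and 16.3 UPM in macrophages. Of 23 other oxidation genes, 15 had enough UMIs in fibroblasts and 1 fell, Hadh (log2 ratio -1.03), and 16 had enough in macrophages and 1 fell, Acot1 (-1.38). These are 6.67% and 6.25% of those with enough UMIs, where 9.72% and 5.37% of all such genes fell. The oxidation genes thus fell about as often as genes at large, or less often.

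Of the 7 fatty acid synthesis genes 1 passed the rule, in macrophages. In fibroblasts 4 of 7 had enough UMIs and none passed the rule, with 3 ratios below 0 and a median log2 ratio of -0.37, and in adventitial fibroblasts all 5 with enough UMIs had ratios below 0 (median -0.53). Srebf1, whose products include the fatty acid regulator SREBP1c, was at 27.6 and 16.8 UPM (log2 ratio -0.68). Its fibroblast clusters ranged from 25.9 to 30.6 UPM after saline and from 13.2 to 18.9 UPM after bleomycin, and how common such separate ranges are over all genes was not counted. Scd1, a desaturase, was at 21.7 and 19.3 UPM, Scd2, its neighbour on chromosome 19, at 77.9 and 51.8 UPM (log2 ratio -0.58), and the elongase gene Elovl1 at 62.2 and 83.8 UPM (log2 ratio 0.42). Fasn, the fatty acid synthase, Acaca, which makes malonyl units, and Elovl6, an elongase of palmitate, had too few UPM in fibroblasts. In macrophages 4 of 7 had enough UMIs and Scd2 rose, from 33.4 UPM [27.1 to 40.7] after saline to 74.5 UPM [63.8 to 86.4] after bleomycin (log2 ratio 1.13 [0.79 to 1.53]), a call lost when no doublets were left out. Srebf1 (24.1 and 26.5 UPM), Scd1 (27.9 and 25.7 UPM) and Elovl1 (63.4 and 67.2 UPM) did not pass there, and Fasn (19 and 31 UMIs) had too few UMIs. Of 18 other genes of fatty acid and triglyceride synthesis 6 had enough UMIs in macrophages and none passed the rule, and in fibroblasts 2 of 10 with enough fell, Fads1 (log2 ratio -1.02) and Lpin1 (-0.99). Over all genes with enough UMIs, 2.98% rose in macrophages and 9.72% fell in fibroblasts. Exons of Srebf1 and Scd2 overlap the microRNA genes Mir6922 and Mir5114 on the same strand.

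The saline library shows which class carries each gene. Over type 2 cells, macrophages and fibroblasts, 16 of the 33 genes were highest in type 2 cells, 14 in macrophages and 3 in fibroblasts, and the lead over the second class was at least 2-fold for 11, 8 and 1. Type 2 cells led 6 of the 7 fatty acid synthesis genes. Scd1 was at 2010 [1946 to 2076] UPM in type 2 cells against 27.9 in macrophages and 21.7 in fibroblasts, Elovl1 at 712 against 63.4 and 62.2, Fasn at 318 against 6.54 and 18.7, and Scd2 at 317 against 33.4 and 77.9. Elovl6 was the exception, with 1 UMI in type 2 cells. Type 2 cells also led all 8 sterol genes, with a lead of at least 2-fold for Idi1, Fdps, Fdft1 and Sqle, and their summed sterol level of 758 [719 to 799] UPM was that of macrophages after bleomycin within counting error. Acsl4 (224 UPM) and Fabp5 (948 UPM) were highest in type 2 cells as well.

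Macrophages led after saline for Pparg (119 UPM against 4.29 in fibroblasts and 2.18 in type 2 cells), Plin2 (930 against 122 and 87.0), Lpl, Fabp1, Fabp4, Abcg1, Acsl1 and Cpt1a, all at least 2-fold over the second class. Abcg1 at 923 UPM and Fabp4 at 271 UPM were at 3.26 and 1.09 UPM in type 2 cells and at 2.71 and 1.66 UPM in fibroblasts. For Pnpla2 and Acadl the first 2 classes did not differ beyond counting error, with ratios of 1.21 [0.996 to 1.48] and 1.05 [0.812 to 1.36]. Fibroblasts led for G0s2 (865 UPM, 9.77-fold over macrophages), Nr1h3 (85.8 UPM, 1.72-fold) and Ces1d (355 against 312 UPM in type 2 cells, 1.14-fold). These are levels of cells that passed a sort for the Lepr reporter and need not stand for all macrophages and type 2 cells of the lung. Lepr itself was at 43.5 UPM over all saline cells and 7.20 UPM over all bleomycin cells.

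**Figure D4:**
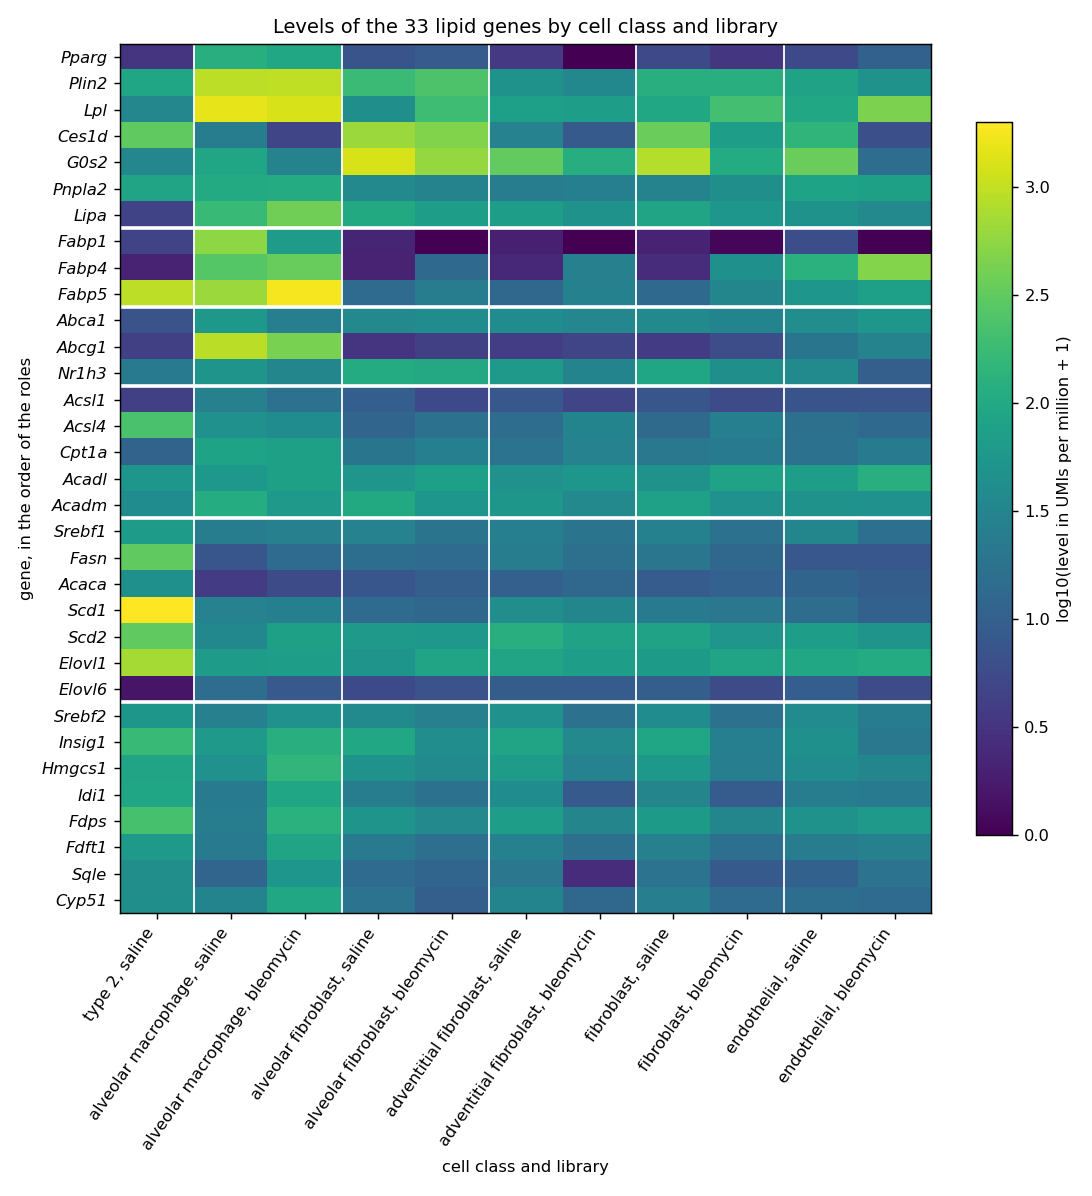
Level of the 33 genes (rows, in the order of the roles, white lines between roles) in each cell class and library (columns), as log10 of UPM plus 1. Type 2 cells are brightest for Scd1 (2010) and Elovl1 (712), and macrophages of both libraries for Lpl (1532 and 1282) and Plin2 (930 and 974).

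In endothelial cells 16 of the 33 genes had enough UMIs, 2 rose and 3 fell, where 9.78% of 4855 genes rose and 10.2% fell. Lpl, whose product works on the capillary surface, rose, from 91.6 UPM [74.9 to 111] to 448 UPM [418 to 479] (log2 ratio 2.28 [1.99 to 2.60]). Fabp4, also known from endothelium, rose from 128 UPM [108 to 151] to 496 UPM [465 to 529] (log2 ratio 1.94 [1.70 to 2.21]), and its log2 ratio was 5.57 with each library clustered alone and 1.09 with cells thinned. In the general capillary cluster, 103 saline and 96 bleomycin cells, Lpl was at 117 and 988 UPM and Fabp4 at 164 and 441 UPM. Lymphatic cells, 19 and 70 in number, held 612 UPM of Fabp4 and 9.78 UPM of Lpl after bleomycin. Without the lymphatic cluster both rises held, at 3.13 for Lpl and 1.51 for Fabp4. G0s2 (353 to 14.4 UPM), Ces1d (143 to 5.34 UPM) and Insig1 (44.5 to 20.3 UPM) fell, the last on 51 and 38 UMIs and lost under 3 of 14 alternative settings. The 10 fibroblast markers summed to 8454 UPM in saline and 850 UPM in bleomycin endothelial cells, with 7 of 8 that had enough UMIs lower, and the part of fibroblast RNA in the falls of G0s2 and Ces1d was not tested.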

How the data were processed

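Levels were computed from the deposited UMI counts of each gene in each barcode, which the authors made with Cell Ranger 2.1.1 on mm10 per the submitters' processing notes. The libraries hold 37570380 and 61537182 UMIs in 5455 and 4473 barcodes. Barcodes with under 500 genes or 1000 UMIs or over 10% mitochondrial UMIs (23 and 5) were left out. Scrublet's own threshold marked 8 and 5 barcodes, under 0.5%, so the 236 and 160 highest scores, the expected 0.8% per 1000 barcodes, were left out. Of 2000 variable genes 1988 were used, without 12 of the 33 lipid genes, and Leiden clustering at resolution 1 on 15 neighbours in 30 principal components (scanpy 1.11.5) made 26 clusters. A lineage needed the highest mean marker share with the second under 90% of it, 3 markers in 25% of cells and 10 leading genes without more markers of another lineage. A kind needed a lead of 25 points, or 10 after centring. These naming limits were set with the clusters in view. Intervals of levels are exact Poisson, of ratios exact conditional binomial and of shares Clopper-Pearson (95%), and 50 UMIs have an interval of 37.1 to 65.9. All 33 genes are named. Of other lists, up to 4 genes with the largest ratios past the rule are named in a class, except some that are not reported here. The members and lists were chosen with earlier results of these data known. The size rule and the ratio intervals were tried on simulated counts with set changes and no variation between animals. The naming rules were not tried in this way. Of 28692 genes 28339 (98.8%) match GENCODE M21. Alternatives covered clustering, filters, doublets, thinning, weighting, scaling, the prior and the minimums.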

Additional observations from a re-analysis of the deposited data

Results flagged for a closer look

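The log2 ratio of bleomycin over saline of 2 sterol synthesis genes was past the size rule in opposite directions in alveolar macrophages and fibroblasts. The macrophage ratio less the fibroblast ratio was 2.80 for Hmgcs1 and 3.80 for Idi1. Against adventitial fibroblasts, a part of the fibroblasts, it was 2.83 for Hmgcs1, 4.17 for Idi1, 3.52 for Fdps and 2.86 for Cyp51. Each class has 1 library per group, so the difference between classes was not tested. How many of all genes pass the rule in opposite directions in these classes was not counted. All of these differences rest on the same 2 libraries, and the second set shares its macrophages with the first.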

How the results depend on the processing

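Among 42 calls of a gene in a class, 24 held under all alternatives run, and no ratio of a called gene changed sign. The counts in fibroblasts (4 higher, 6 lower), in macrophages (9 and 5) and of the saline order stayed within 1.5 times. In alveolar fibroblasts (1 higher, 2 lower) the lower count was 1 at resolution 0.5, 0 at resolution 2, 7 with each library clustered alone, and 1 both with no doublets left out and as a mean over cells. The higher count was 2 with each library alone, with no doublets left out, as a mean over cells, with a minimum of 20 UMIs and with type 2 RNA taken off. In adventitial fibroblasts (2 higher, 8 lower) the higher count was 1 at resolution 0.5, under the stricter barcode filter and as a mean over cells, and 0 with cells thinned to 2000 UMIs, and the lower count was 3 with each library alone and 5 thinned. In endothelial cells (2 higher, 3 lower) the higher count was 4 with each library alone, and the lower count 1 thinned and 5 with a minimum of 20 UMIs. Thinning leaves fewer UMIs and the lower minimum admits more genes; for the other settings the cause was not tested. The alternatives of type 2 RNA and of leaving out clusters were chosen after seeing the data. No paired analysis was possible because each group has 1 library. Counts near 50 UMIs, as for Insig1 in endothelial cells and Sqle in saline macrophages, limit the precision, and animals behind 1 library cannot be told apart.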

Other observations

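Cluster 13, which was given no lineage because haemoglobin genes led it while smooth muscle markers were the most frequent, held 103 saline and 98 bleomycin cells. Fabp4 was at 112 UPM in its saline cells and 412 UPM in its bleomycin cells, above the level in bleomycin fibroblasts. Pnpla2 was at 59.3 and 144 UPM there, and Insig1 at 16.9 and 8.71 UPM. The 8 sterol genes summed to 132 [104 to 165] and 184 [156 to 216] UPM, so their order in this cluster was not that of the fibroblasts. Cluster 12, 86 and 83 immune cells of no named kind, was led by immunoglobulin genes and by C1qa, C1qb and C1qc, markers of different cell types, and shifts in its mix were not tested. It held 71.8 UPM of Fabp5 after saline and 809 UPM after bleomycin, 67.7 and 312 UPM of Lpl, and 91.2 and 387 UPM of Plin2.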
